A study of Mus musculus with 1615 samples.

Results

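Macrophages of the mouse colon were looked for among 1615 single cells, and 61 cells met a rule based on the RNA of 4 macrophage genes. Counts were scaled per cell by the sum of its gene counts to CPM. A cell was kept when C1qa, C1qb, C1qc and Csf1r summed to at least 200 CPM and when Epcam, an epithelial adhesion gene, and Cdh5, the endothelial cadherin, were each below 100 CPM. The 61 cells made up 3.78% of all cells. They came from 6 of the 11 mice. Since these genes chose the cells, their high level in the cells is a description and not a finding.

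The series was made to survey smooth muscle cells, and each cell was sorted into a well and sequenced as a Smart-Seq2 library, a full-length protocol without molecular identifiers. All mice were reporter mice on a label of 8 to 30 weeks of age, and no untreated, treated or reporter-free group was among the samples. Mouse 19CB27:3 was a male of the line CSPG4dsRED, and 20 of its cells met the rule, 17.1%. Mouse 20GG79:6, a male of the dual line ACTA2GFP:CSPG4dsRED, had 19, 7.85% of its cells. Mouse 19CB4:5, a male of the line PDGFRbGFP, had 10, 12.5% of its cells. Mouse 20GG79:1, a dual-line female, had 7, 1.95% of its cells, and mouse 20GG95:3, the other dual-line female, had 4, 0.792%. Another PDGFRbGFP male, with cells on a pair of plates, had 1 such cell, 0.503% of its cells. The other 5 mice, males of the lines ACTA2GFP, PDGFRaH2bGFP and PDGFRbGFP with 5 to 63 cells each, had none. The reporters follow genes of mural and mesenchymal cells, and the labels do not say whether the sorted cells were reporter-positive. The tissue label is colon, while the protocol text describes dissociation of hearts.

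Macrophages are phagocytes that stay in a tissue, clear dead cells and microbes, and present peptides to T cells on MHC class II. In the gut wall they lie both under the epithelium and in the muscle layers, near nerves and vessels. Their survival depends on the receptor encoded by Csf1r. C1q, which starts the classical complement pathway, is built of A, B and C chains, and macrophages are a main source of it.

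The label macrophage held for most of 32 of the 61 cells and went against the data for the other 29. The 32 cells with a marker sum of at least 1000 CPM, a boundary chosen after the values were seen, are called macrophage-like here. Their median was 13139 CPM, between 1260.8 and 25071.6. The 29 cells below it, called cells of low marker level, ran from 212.96 to 875.5 CPM. The lowest members were at 212.96, 220.1 and 222.5 CPM, and the highest cells just below the rule at 194.6, 194.3 and 194.1 CPM, so the rule cut through a continuous range. A gap lay higher up, since the 2 lowest macrophage-like cells had 1261 and 1388 CPM and the next had 3244. Another 17 cells reached the marker sum but were left out, 14 for Cdh5 and 3 for Epcam.

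**Figure D1:**
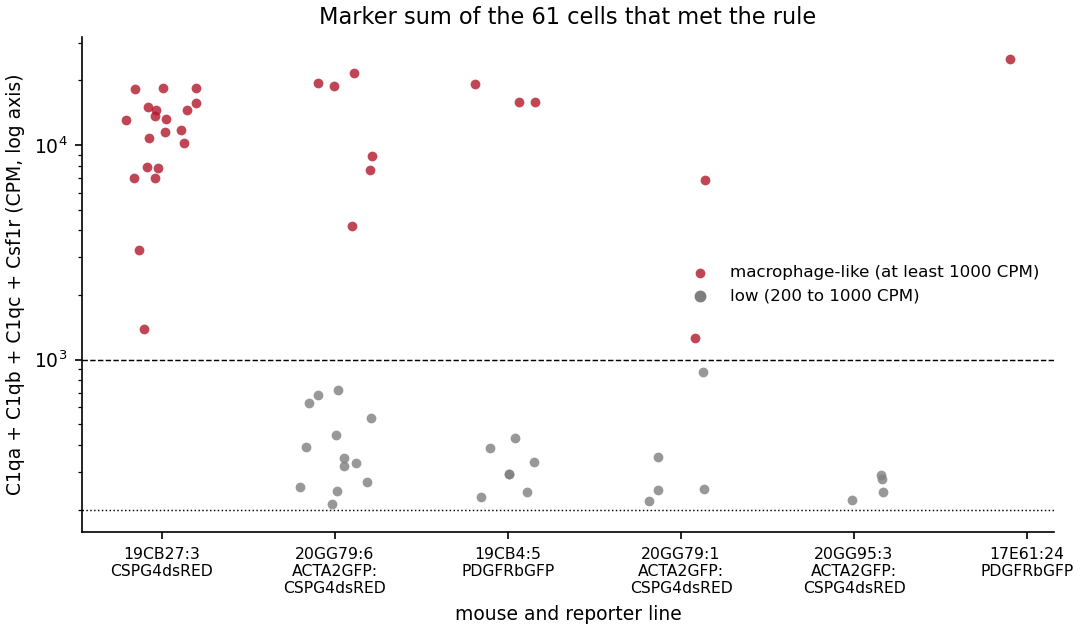
The vertical axis gives the sum of C1qa, C1qb, C1qc and Csf1r per cell in CPM on a log scale, and the horizontal axis the mouse and its reporter line. Each point is 1 of the 61 cells. All 20 cells of 19CB27:3 lie above the dashed line at 1000 CPM, while 13 of 19 cells of 20GG79:6 and 7 of 10 of 19CB4:5 lie between it and the dotted line at 200 CPM.

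Genes outside the rule showed the same division. Of 30 macrophage identity genes, the macrophage-like cells had a median of 18 at 50 CPM or more (range 2 to 25), and 30 of 32 cells had at least 10. The cells of low marker level had a median of 2 (range 0 to 8), and 0 of 29 had 10. All other cells had a median of 1 (range 0 to 6). Ptprc, the pan-leukocyte antigen CD45, reached 50 CPM in 26 of 32 macrophage-like cells and in 0 of 29 cells of low marker level. Adgre1, which encodes F4/80, gave the same counts, 26 and 0. Tyrobp, the signalling adaptor of myeloid receptors, reached 50 CPM in 29 and in 1. Lyz2, lysozyme of myeloid cells, reached 500 CPM in 31 and in 0, and Cd74, the invariant chain of MHC class II, reached 1000 CPM in 27 and in 1. The division for these 2 genes depends on those higher levels. At 50 CPM, Lyz2 was reached in 32 and in 16 cells, and Cd74 in 30 and in 18. These genes come from the same cells that the marker sum divided, so no test was made.

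The cells of low marker level held RNA of other cell types. Of the 29, 23 reached the set level of a marker of muscle, fibroblasts, vessels or T cells. Dcn, a proteoglycan of fibroblasts, reached 500 CPM in 16, Myh11 or Acta2, myosin and actin of smooth muscle, reached 1000 CPM in 11, Pecam1 of endothelium reached 500 CPM in 7 and Cd3e of T cells in 1. Among the macrophage-like cells the counts were 4 of 32 for Dcn, 1 for Myh11, 2 for Acta2, 1 for Pecam1 and 0 for Cd3e. Rgs5 of pericytes reached 500 CPM in 8 cells of low marker level and in 0 macrophage-like cells. In 9 of the 29 cells all C1q chains were at 0 and the rule was met through Csf1r alone, at 220 to 875.5 CPM. All 9 lay on plates of the dual-line females, 5 of 20GG79:1 and 4 of 20GG95:3.

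The low C1q level followed the position of wells on a plate. On the plate of mouse 19CB4:5, all 36 wells in the same row as a macrophage-like cell held C1q RNA, at a median of 113.2 CPM for the 3 chains together. The 5 wells sharing only a column had a median of 98.98 CPM. Of the 36 wells in neither, 5 had any C1q RNA and the median was 0. For mouse 20GG79:6, 39 of 41 wells in the same row, 30 of 46 in the same column only and 7.38% of those in neither held C1q RNA, with medians of 50.4, 6.90 and 0 CPM. The plate of mouse 19CB27:3 gave 15 of 16, 41 of 46 and 3 of 35, with medians of 46.96, 20.3 and 0 CPM. The plate with the 1 macrophage-like cell of the PDGFRbGFP male gave 6 of 7, 5 of 5 and 1.89%. For 20GG79:1, whose macrophage-like cells had less C1q RNA, the values were 13 of 45, 10 of 24 and 3.48%.

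Of the 29 cells of low marker level, 18 lay in the row of a macrophage-like cell, 12 of the 13 of mouse 20GG79:6 and 5 of the 7 of 19CB4:5 among them. The proportions of the C1q chains were read in both kinds of well. On the plate of 20GG79:6 the A, B and C chains made up 32.3%, 34.2% and 33.5% of the C1q counts of macrophage-like cells, and 33.4%, 32.5% and 34.1% of those in wells of the same row. In 19CB4:5 the shares were 33.3%, 36.7% and 30.0% against 34.9%, 39.8% and 25.3%. For 19CB27:3 they were 31.1%, 39.01% and 29.9% against 28.8%, 47.9% and 23.3%, from the fewest counts of the 3 plates. Wells of 20GG79:1 in neither row nor column had 43.7%, 45.1% and 11.3%, from fewer counts still, beside 32.1%, 32.96% and 34.9% in its macrophage-like cells. Another well of that plate, with 1538 CPM of C1q, was left out by the limits on Epcam and Cdh5. Its row and column were not used to place wells, so wells that share them may be among those in neither. The shares were thus closest on the plate of 20GG79:6. Lyz2 and Cd74 were also raised along rows, at medians of 38.1 and 137.5 CPM in the rows of the plate of 20GG79:6 and 0 and 0 CPM in wells of neither row nor column. Why C1q RNA was found in more wells along rows and columns was not tested.

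**Figure D2:**
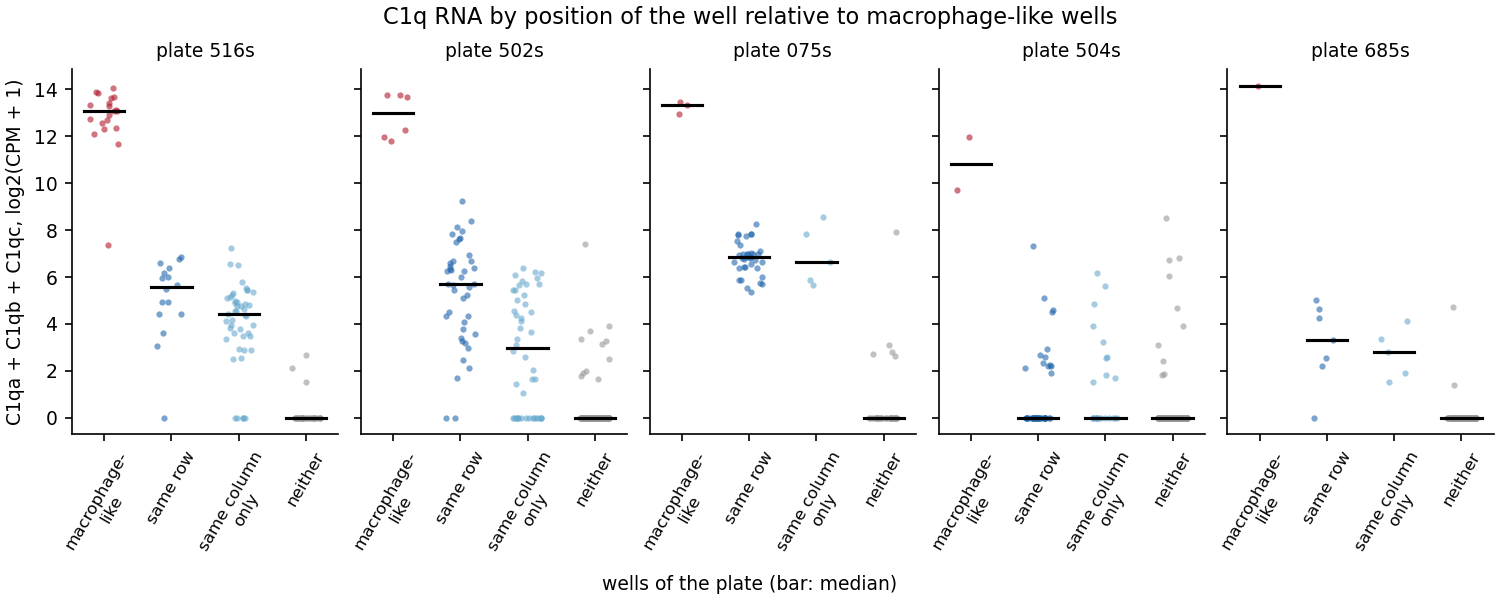
The vertical axis gives the sum of C1qa, C1qb and C1qc per well as log2(CPM + 1), and the horizontal axis the position of the well relative to macrophage-like wells of the same plate. Points are wells, bars are medians, and each panel is 1 plate. On the plates of 19CB27:3, 20GG79:6, 19CB4:5 and the PDGFRbGFP male with 1 macrophage-like cell the medians stand in the order macrophage-like, same row, same column only and neither, where the median is 0.

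Macrophage-like cells made up different shares of the cells of each mouse. The share was 17.1% in 19CB27:3 (95% Clopper-Pearson interval 10.8 to 25.2), 3.75% in 19CB4:5 (0.780 to 10.6), 2.48% in 20GG79:6 (0.915 to 5.32), 0.557% in 20GG79:1 (0.0675 to 1.998) and 0.503% in the PDGFRbGFP male with 1 such cell (0.0127 to 2.77). In 20GG95:3 it was 0, with an upper limit of 0.728% by the same interval and of 0.594% by a floor of 3 counts. The interval of 19CB27:3 does not overlap that of any of the other 5 mice with cells by the rule, though it lies close to that of 19CB4:5. The intervals cover counting error only. Each mouse lay on plates of its own and no gate is stated in the labels, so mouse, plate, line and gate cannot be told apart.

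The 3 chains of C1q varied together from cell to cell. In the 20 cells of 19CB27:3, C1qa ran from 78.9 to 6461 CPM with a median of 2691, C1qb from 59.2 to 7490 with a median of 3540, and C1qc from 26.3 to 4402 with a median of 2581. In 20GG79:6 the 6 cells had 407.8 to 5032 CPM of C1qa (median 2970), 632.5 to 5409 of C1qb (median 2760) and 1055 to 4422 of C1qc (median 3379). In 19CB4:5 the 3 cells had 2726, 2929 and 4163 CPM of C1qa. In 20GG79:1 the 2 cells had 186.46 and 1513 CPM of C1qa, below the 3 cells of 19CB4:5. The ranges of 19CB27:3, 20GG79:6 and 19CB4:5 overlapped. Across the 20 cells of 19CB27:3, on the log2(CPM + 1) scale, Pearson's r was 0.918 between C1qa and C1qb, 0.956 between C1qa and C1qc and 0.973 between C1qb and C1qc (Spearman's rho 0.868, 0.934 and 0.931). Between C1qa and Csf1r r was 0.369 and rho 0.206. C1qa was lower in cells with more gene counts, at r = -0.224 (rho -0.562). The 3 chains and Csf1r are the genes that chose the cells. These points share a plate and a mouse, and the values are given as a description.

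The C1q genes lie side by side on chromosome 4 (GRCm38), all on the minus strand, C1qb from 136880129 to 136886187, C1qc from 136889804 to 136893065 and C1qa from 136895917 to 136898803. The whole cluster spans 18.7 kb. The promoters of C1qb and C1qc are shown because these neighbouring genes varied together. Each window runs from 250 bases before the start of the RefSeq transcript to 50 bases after it, on GRCm38.p6, read 5′ to 3′ on the minus strand. The C1qb window is chr4:136886151-136886450 and the C1qc window is chr4:136892865-136893164. The RefSeq starts, 136886200 for C1qb and 136892914 for C1qc, differ from the GENCODE gene ends given above, and the GENCODE start of C1qc at 136893065 lies inside its window. Capitals mark GAGGAA on either strand (TTCCTC when read on the other), the core letters of the site bound by PU.1, a myeloid transcription factor encoded by Spi1.

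C1qb promoter: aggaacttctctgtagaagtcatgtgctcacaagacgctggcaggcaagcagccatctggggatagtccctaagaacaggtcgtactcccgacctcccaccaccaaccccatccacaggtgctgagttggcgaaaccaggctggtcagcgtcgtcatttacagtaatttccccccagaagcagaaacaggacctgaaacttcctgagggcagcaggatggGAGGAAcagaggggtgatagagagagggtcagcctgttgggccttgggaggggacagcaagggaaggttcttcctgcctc

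C1qc promoter: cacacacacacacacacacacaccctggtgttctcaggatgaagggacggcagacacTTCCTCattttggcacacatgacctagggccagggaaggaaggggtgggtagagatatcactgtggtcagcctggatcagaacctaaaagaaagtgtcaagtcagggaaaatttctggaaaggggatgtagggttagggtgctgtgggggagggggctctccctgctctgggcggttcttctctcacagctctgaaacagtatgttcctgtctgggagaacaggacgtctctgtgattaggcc

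Each window held the motif 1 time, C1qb on the strand of the gene and C1qc on the other. Of 32851 promoters of 300 bases, 28.3% held it at least 1 time, and a match is a description, not a binding site. Spi1 itself reached 50 CPM in 27 of the 32 macrophage-like cells, with a median of 525 CPM and a range of 0 to 2165. The Spi1 level in sums over macrophage-like cells was 606 CPM in 19CB27:3, 672 in 19CB4:5 and 496.3 in 20GG79:6, against 0.643, 2.33 and 1.02 CPM in sums over all cells outside the rule.

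The receptor gene Csf1r had 26.9 to 5076 CPM in the 20 cells of 19CB27:3 (median 3298), 183.1 to 7762 in the 6 cells of 20GG79:6 (median 4870), and 4713, 5540 and 11511 CPM in the 3 cells of 19CB4:5. The 2 cells of 20GG79:1 had 438.03 and 2888 CPM, and the cell of the PDGFRbGFP male had 6988. Lyz2 ran from 190.8 to 12229 CPM in 19CB27:3 (median 3934.5), from 1257 to 6367 in 20GG79:6 (median 2045), and was at 2778, 3519 and 4068 CPM in 19CB4:5, 547.5 and 4216 in 20GG79:1 and 9709 in the PDGFRbGFP male's cell. Cd74 ran from 0 to 12604 CPM in 19CB27:3 (median 3103) and from 1165 to 14698 in 20GG79:6 (median 2773.5). It was at 6055, 6471 and 6530 CPM in 19CB4:5, 1373 and 7491 in 20GG79:1 and 12180.2 in the cell of the PDGFRbGFP male. For Csf1r the 2 cells of 20GG79:1 lay below the 3 cells of 19CB4:5, and the cell of the PDGFRbGFP male lay above all cells of 19CB27:3. The ranges of 19CB27:3 and 20GG79:6 overlapped for Csf1r, Lyz2 and Cd74, and cells at or near 0 for Cd74 were found in 19CB27:3.

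To describe which genes set the cells apart, counts were summed per mouse, and a gene was counted when it was at least 4-fold higher in macrophage-like cells than in all cells outside the rule in each of 3 mice (19CB27:3, 19CB4:5 and 20GG79:6, those with at least 3 macrophage-like cells). This held for 3.11% of 11814 genes. For all 61 cells, over 4 mice with at least 5 of them, it held for 1.05% of 12008 genes. The cells were chosen by such a contrast, so the counts below are read as a description, with no test. CPM are not divided by gene length, so levels are compared within a gene and not between genes.

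Of 30 macrophage identity genes, 23 were at least 4-fold higher in each of the 3 mice. Adgre1 stood at 1306.5 CPM in 19CB27:3, 1016 in 19CB4:5 and 906 in 20GG79:6, against 1.09, 2.03 and 0.915 CPM in the other cells. Laptm5, a lysosomal membrane protein of blood-forming cells, stood at 2502.5, 2714 and 2106 CPM against 5.20, 7.04 and 5.04. Cd68, a lysosomal glycoprotein, and Coro1a, an actin regulator of leukocytes, had 852 to 1121 and 766 to 1313.5 CPM over the 3 mice. The 20 genes with the highest smallest ratio to other cells were taken among genes of at least 100 CPM in each mouse, with counts below 3 in other cells raised to 3. They include Nfam1, an ITAM receptor, Il10ra, the interleukin-10 receptor, and Fcgr1, the high-affinity IgG receptor. Nfam1 had 251.99, 547 and 491.3 CPM, and the other cells held 3, 10 and 24 counts of it in all. Il10ra had 295.3, 333.2 and 949 CPM against 3, 7 and 48 counts, and Fcgr1 had 142.4, 189.99 and 177.9 CPM against 1, 0 and 9 counts. The order among these genes depends on a few counts in other cells and is not given. Fcrls, Fcgr3, Clec4a1, Cd33, Cd53, Itgb2, Pld4, Nckap1l, Lrrc25, Slamf9, Myo1f, Cd300ld, Aoah, Bin2, Relt, Ms4a6b and Adgre1 were the others.

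Of 15 MHC class II genes tested, 12 were at least 4-fold higher. Besides Cd74 they were the peptide-binding chains H2-Aa, H2-Ab1 and H2-Eb1, the loading factors H2-DMa, H2-DMb1 and H2-DMb2, the regulator Ciita, the proteases and reductase Ctss and Ifi30, and the costimulatory Cd86 and Cd83. H2-Ab1 stood at 1418, 5102 and 2853 CPM in 19CB27:3, 19CB4:5 and 20GG79:6, against 20.6, 78.4 and 47.1 CPM in other cells. Ctss, cathepsin S, had 1115.5, 1686.5 and 1440.4 CPM. Ciita had 86.03, 903 and 1434 CPM.

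Of 13 Fc and SIRP receptor genes, 10 were at least 4-fold higher. Fcer1g, the common gamma chain, had 604, 1028 and 377.8 CPM against 0.835, 4.18 and 1.85, and Fcgr3, a low-affinity IgG receptor, had 823, 903 and 732 CPM. Sirpa, the receptor of the signal CD47, had 560.3, 1004 and 1559 CPM. Of 26 scavenger and phagocytic receptor genes, 15 were higher, among them Stab1 (1912, 2540.1 and 1322 CPM), the mannose receptor Mrc1, the haemoglobin receptor Cd163 and Trem2. Axl, a receptor for dying cells, was not, with 364.7, 954 and 1182 CPM against 101.6, 158.2 and 1271 CPM in other cells.

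Of 19 complement genes, 8 were higher. They were the C1q chains, the properdin gene Cfp, the anaphylatoxin receptors C3ar1 and C5ar1, and the integrins Itgam and Itgax. Cfp had 1264.5, 869 and 77.5 CPM, and C3ar1 had 348.8, 841 and 1191.5. Of 16 chemokine genes, 10 were higher. Cxcl16 had 543, 559 and 1722 CPM, Pf4 had 674, 525.9 and 155.9, and Ccl3 had 93.2, 980.3 and 353.9. The lymphocyte attractants Ccl5, Ccl17, Ccl22, Cxcl9 and Cxcl13 reached 50 CPM in no macrophage-like cell. Among the chemokine receptor genes that were higher were Ccr1 and Cx3cr1. Ccr2, the receptor by which monocytes leave the marrow, reached 50 CPM in 2 of 32 cells.

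Cytokine RNA was unevenly spread over the cells. Of 14 cytokine genes, Il1b, Il10 and Tnf were at least 4-fold higher, but Il1b reached 50 CPM in 6 of 32 cells, Tnf in 5 and Il10 in 1. Il6, Il12a, Il12b, Il23a, Csf2, Il34 and Ifnb1 reached it in none. Il16, a leukocyte attractant, reached it in 14 cells, with 141.5, 0 and 650.2 CPM in sums over 19CB27:3, 19CB4:5 and 20GG79:6, and Tnfsf12 in 9, and neither passed the 4-fold criterion. Of 20 cytokine receptor genes, Csf1r, Csf2ra, Csf2rb, Il10ra and Il21r were higher, and Tgfbr2, the TGF-beta receptor, was not, at 1177, 752 and 450.3 CPM against 1646, 2034 and 1279. Of 25 Toll-like receptor and inflammasome genes, 9 were higher, among them the chaperone of nucleic acid sensors Unc93b1 (1514, 1725 and 2474 CPM) and the lipopolysaccharide co-receptor Cd14 (458.8, 654 and 130.9 CPM). Of 20 interferon response genes, 3 were higher, Ifi204, Ifi207 and Cxcl10. Ifi207 had 353.4, 162.5 and 98.5 CPM.

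The lysosomal and lipid genes were abundant in the cells without being limited to them. Of 40 lysosomal genes listed, 33 reached 50 CPM in at least 16 of the 32 cells. Of the 39 that could be compared, 7 were at least 4-fold higher than in other cells. Ctsb, cathepsin B, had 3354, 3948.5 and 2305 CPM against 1115, 783 and 1352, while Ctsc, cathepsin C, had 2901, 2168 and 1116.5 against 8.42, 24.3 and 188.9. Of 24 lipid genes, 5 were higher, namely Trem2, Soat1, Alox5, Hpgds and Acp5. Apoe, apolipoprotein E, reached 50 CPM in all 32 cells, with a median of 4967 CPM and a range of 1412 to 16312. In sums it stood at 3574, 5843 and 3465 CPM against 915, 540 and 505.4, a difference of less than 4-fold in 19CB27:3. Of 15 iron and haem genes, Slc11a1, a phagosomal metal transporter, and Cd163 were higher, and the ferritin gene Fth1 was not, at 1735, 3094 and 1105 against 1043, 1125 and 806 CPM. Of 17 purinergic and neurotransmitter receptor genes, P2ry12, P2ry13 and Adora3 were higher.

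None of 14 monocyte genes, 23 growth factor genes, 27 dissociation and stress genes or 8 cell cycle genes passed the 4-fold criterion. Of all 11814 genes 3.11% passed, so 0 in lists this short is near the share over all genes, here and in the marker lists below. Of the monocyte genes, Ccr2 fell short only in 19CB27:3, at 0.175 CPM against 0.193 in other cells. It stood at 367.6 against 0.955 CPM in 19CB4:5 and 265.9 against 0.345 in 20GG79:6. Fos, an immediate early gene that cell dissociation is known to raise, had 1607, 3953 and 2174 CPM in macrophage-like cells of 19CB27:3, 19CB4:5 and 20GG79:6 and 1878, 3140.1 and 1222 CPM in the other cells. Of the markers of other cells, none of 25 muscle, 13 fibroblast, 13 endothelial, 12 epithelial and 9 glial genes passed, nor did either T cell gene that was tested. The exceptions in the other immune lists were Ighm, Batf3 and Mmp9, each the only member called of its list. Cd3e, Trac and Nkg7 of lymphocytes, S100a8 and S100a9 of neutrophils, Flt3 and Xcr1 of dendritic cells, and Cpa3 and Mcpt4 of mast cells reached 50 CPM in 0 of 32 cells. Ighm, the heavy chain of IgM, reached 50 CPM in 20 of 32 cells with a median of 413.1 CPM, while Cd79a, which B cells carry with it, did so in 1 cell. Ighm stood at 428.9, 397.9 and 567 CPM in sums over the 3 mice, against 0.835, 0.597 and 1.25 CPM in other cells.

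Part of the genes linked to long-lived resident macrophages stood at different levels in different mice. Of 30 such genes, 8 were at least 4-fold higher in each of the 3 mice: Cd163, Mrc1, Folr2, Cd4, Stab1, F13a1, Cbr2 and Pf4. In sums over 19CB27:3, 19CB4:5 and 20GG79:6, Cd4 stood at 433.3, 561.7 and 655.2 CPM, Stab1 at 1912, 2540.1 and 1322, and Selenop, a selenium carrier and the most abundant gene of the list, at 3855, 3117 and 1974. Cd4 was thus highest in 20GG79:6 and Stab1 in 19CB4:5, while Selenop was within 2-fold. Cd163 had a median of 1240 CPM in the 20 cells of 19CB27:3, where it ran from 0 to 3202, and of 0 in the 6 cells of 20GG79:6, where it ran from 0 to 881. In 19CB4:5 the 3 cells had 0, 16.3 and 240 CPM, in 20GG79:1 0 and 64.6, and in the cell of the PDGFRbGFP male 0. Of the 20 cells of 19CB27:3, 15 had at least 500 CPM of Cd163, against 1 of the 12 cells of other mice. The ranges overlapped.

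F13a1, the coagulation factor XIII A chain, ran from 6.52 to 5821 CPM in 19CB27:3 (median 2975) and from 0 to 895 in 20GG79:6 (median 0). It was at 0, 0 and 835 CPM in 19CB4:5 and at 2125 in the cell of the PDGFRbGFP male. Lyve1, a hyaluronan receptor of lymphatic vessels and of some resident macrophages, ran from 0 to 5761 CPM in 19CB27:3 (median 1839) and from 0 to 3.37 in 20GG79:6. It was at 7.57, 73.4 and 1370 CPM in 19CB4:5 and at 2454 in the cell of the PDGFRbGFP male. In sums, Folr2, a folate receptor, stood at 1165 CPM in 19CB27:3, 111.5 in 19CB4:5 and 70.5 in 20GG79:6. Fcna, a ficolin, stood at 1083, 0 and 11.5 CPM, Retnla at 530.3, 0 and 0, and Timd4, a receptor for phosphatidylserine, at 190, 0 and 0. The haem oxygenase Hmox1 stood at 690.2, 1038 and 1.999 CPM. In sums over the 3 mice Folr2, Fcna, Retnla and Timd4 were highest in 19CB27:3, and Hmox1 in 19CB4:5.

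Cx3cr1, the fractalkine receptor, and MHC class II genes had another order. Cx3cr1 ran from 33.3 to 8877 CPM in 20GG79:6 (median 2919) and was at 1745, 2275 and 4432 CPM in 19CB4:5. In 19CB27:3 its median was 1.43 CPM and its highest value 2178, and 10 of the 20 cells were at 0. Itgax, the integrin CD11c, ran from 0 to 4918 CPM in 20GG79:6 (median 1127) and from 0 to 40.3 in 19CB27:3, where 19 of 20 cells were at 0. H2-Ab1 ran from 590 to 15230 CPM in 20GG79:6, was at 4371, 4912 and 5938 in 19CB4:5, and ran from 0 to 6637 in 19CB27:3 (median 1394). At least 500 CPM of H2-Ab1 were found in 12 of 20 cells of 19CB27:3 and in 12 of 12 cells of the other mice. For Mrc1 the counts at 500 CPM were 18 of 20 and 7 of 12. Per mouse, the resident list held 2.64% of the counts of macrophage-like cells in 19CB27:3, 1.13% in 19CB4:5 and 0.733% in 20GG79:6, and the MHC class II list 1.02%, 2.64% and 1.81%.

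**Figure D3:**
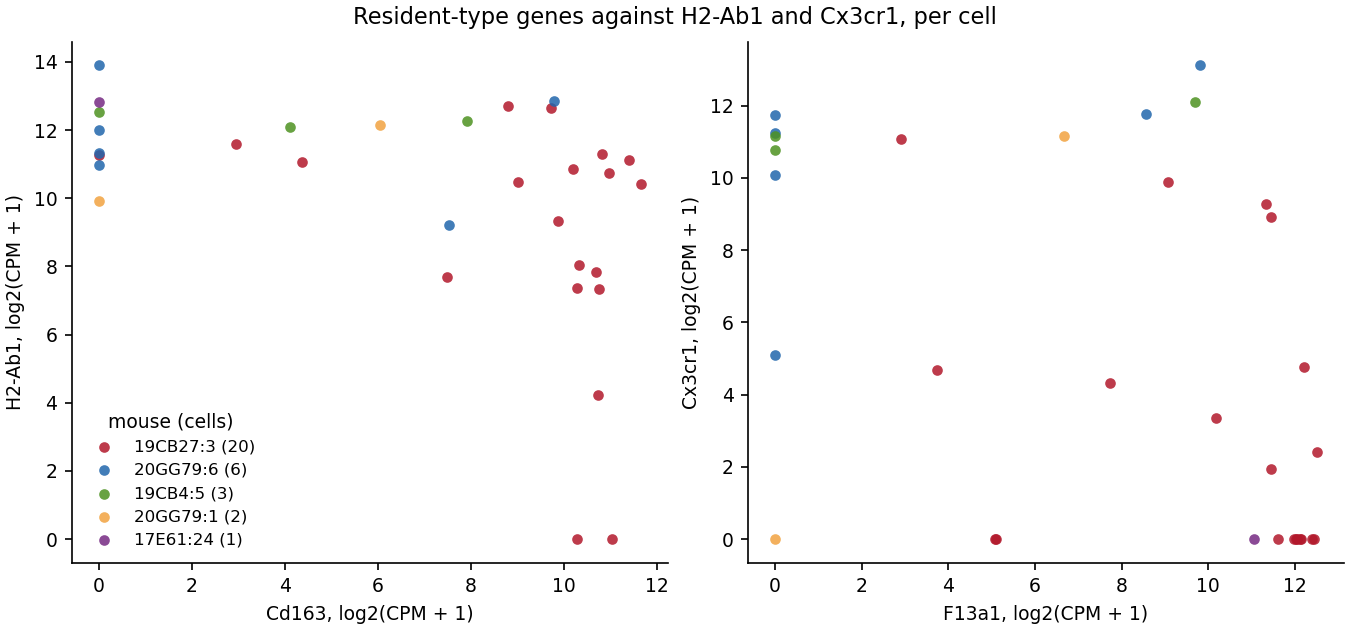
Each point is 1 of the 32 macrophage-like cells, coloured by mouse. The left panel plots H2-Ab1 against Cd163 and the right panel Cx3cr1 against F13a1, all as log2(CPM + 1). Most cells of 19CB27:3 lie at high Cd163 and F13a1 over a wide range of H2-Ab1, and the cells of 20GG79:6 and 19CB4:5 lie at high H2-Ab1 and mostly at high Cx3cr1.

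The division was not complete within a mouse. Among the 20 cells of 19CB27:3, r between Cd74 and Cd163 was -0.26 (rho -0.26) and between Cd74 and H2-Ab1 0.782 (rho 0.820), both on the log2(CPM + 1) scale. Within this mouse the genes with the largest SD over cells were Mmp9, Retnla, Pla2g15, H2-Aa, Rel, Cd209f and Fcrls. Mmp9, a matrix protease, was at 0 in 11 of the 20 cells and reached 3740 CPM. H2-Aa ran from 0 to 8034 CPM, with 3 cells at 0. Over all 32 cells the most variable genes were Cx3cr1, Fcna, Mmp9, F13a1, Lyve1 and Fcrls, with SDs of 4.75 to 5.06 on the log2 scale, followed by Cd209f, Retnla, Oas2, Cd4, Dok2, Ccl9, Cd163, Ccl7 and Myo1f. Fcrls was at 0 in 8 cells and reached 5818 CPM. In single cells a value of 0 can also arise from RNA that was not captured, and its share was not tested. Each of the 3 mice was of another line and plate, so no test of these differences between single mice was possible.

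**Figure D4:**
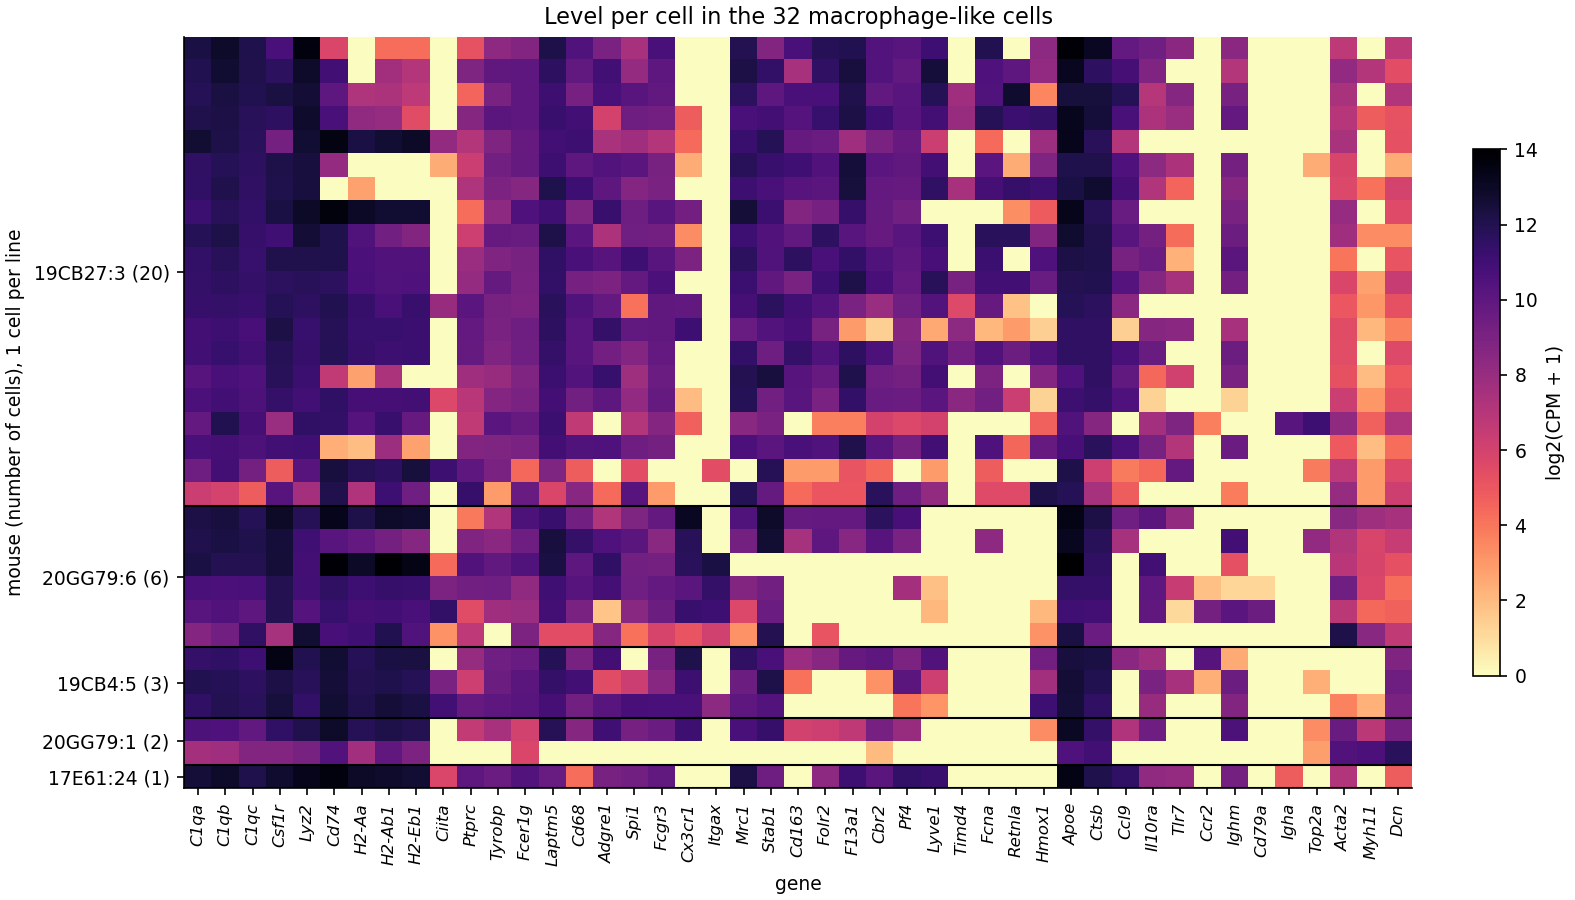
Each line is 1 of the 32 macrophage-like cells, grouped by mouse and ordered by marker sum within a mouse, and each column is 1 gene. The colour gives log2(CPM + 1), from pale at 0 to dark at 14. C1qa to Lyz2 are dark in nearly all cells, Cd163 to Retnla mostly in the cells of 19CB27:3, Itgax in 20GG79:6, and Acta2 and Myh11 darkest in the cells of the dual line.

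Single cells stood apart from the rest, and were picked after their values were seen. The cell of 20GG79:1 with the lowest marker sum had 0 CPM of Ptprc and Adgre1, 3415.5 of Dcn, 5910.5 of Col1a1 and 1563 of Myh11, so that RNA of fibroblasts and muscle stood beside 1373 CPM of Cd74. A cell of 19CB27:3 with 78.9 CPM of C1qa had 2559 of Ptprc, 3802 of Mrc1 and 1224 of Csf1r. Other macrophage genes were low in it, with 6.58 CPM of Tyrobp, 19.7 of Adgre1, 52.6 of Laptm5 and 190.8 of Lyz2. A cell of the same mouse with 26.9 CPM of Csf1r had 5273 of Cd74 and none of Adgre1 or Mrc1.

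Another cell of 19CB27:3 held the antibody genes Igha (1189 CPM), Jchain (1437) and Igkc (1288) together with the division genes Top2a (2180.2) and Birc5 (694), beside 4051 CPM of C1qb. It was the only one of 32 with 50 CPM of Igha or Jchain. A cell of 20GG79:6 held the B cell genes Cd79a (707 CPM) and Cd79b (627) with 2188 of Itgax, 2438.5 of Cx3cr1 and 595 of Ccr2. Whether these wells held 1 cell or more was not tested. The cell with the most Ccr2, 1227 CPM, was in 19CB4:5 and also had the most Csf1r, 11511 CPM.

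Smooth muscle RNA was low in macrophage-like cells and high in part of the cells of low marker level. Myh11 had a median of 6.65 CPM in the 32 macrophage-like cells, from 0 to 1563, and 10 of them were at 0. Its median was 141.8 CPM in the 29 cells of low marker level, from 0 to 9344.5. In endothelial cells, those with at least 100 CPM of Cdh5, the Myh11 median was 0, and in 700 muscle cells, those with at least 1000 CPM of Myh11, it was 4788. Acta2 had medians of 112.5 CPM in macrophage-like cells, 554 in cells of low marker level, 25.8 in endothelial cells and 7156.5 in muscle cells. Over all 61 cells the medians were 24.8 CPM of Myh11 and 194.7 of Acta2. The macrophage-like cells thus stood above endothelial cells for both genes in the pooled data, though plates differ.

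Within plates the difference between macrophage-like and endothelial cells varied with the plate and the gene. On the plate of 20GG79:6, which held 82 muscle cells, the Acta2 median was 249.1 CPM in 6 macrophage-like and 172.3 in 29 endothelial cells, and the Myh11 medians were 56.6 and 35.03. On the plate of 19CB27:3, with 0 muscle cells, Acta2 was at 93.2 CPM in 20 macrophage-like and 50.4 in 62 endothelial cells, and Myh11 at 4.36 and 3.24. In 19CB4:5, whose plate also had 0 muscle cells, Acta2 was at 0 in 3 macrophage-like and 4.39 in 27 endothelial cells, and Myh11 at 0 in both. The ranges overlapped on all 3 plates. In the 20 cells of 19CB27:3, Acta2 on the log2(CPM + 1) scale was lower in cells with more gene counts, at r = -0.76 (rho -0.78). Mixed wells, engulfed muscle RNA and RNA from neighbouring wells were not tested and cannot be told apart by these levels.

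**Figure D5:**
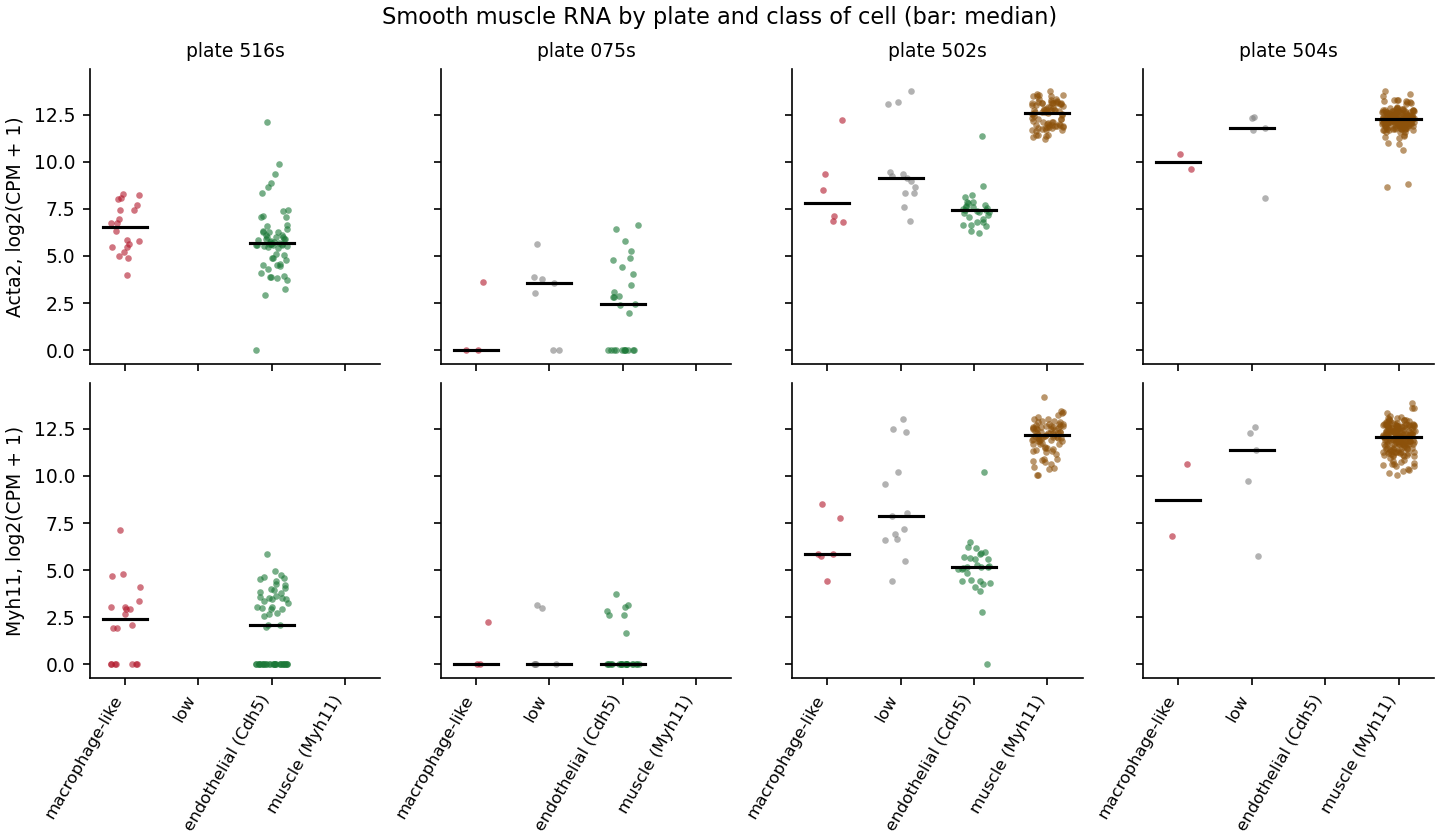
The vertical axes give Acta2 (top) and Myh11 (bottom) per cell as log2(CPM + 1), by class of cell on the horizontal axis and by plate in the panels. Points are cells and bars medians. Macrophage-like and endothelial cells overlap on the plates of 19CB27:3, 19CB4:5 and 20GG79:6, and cells of low marker level reach the range of muscle cells on those of 20GG79:6 and 20GG79:1. Plates with fewer than 2 macrophage-like cells are not drawn.

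The share of muscle RNA was compared between mice of the dual line and of the other lines, a comparison in which 4 mice cannot reach p = 0.05. Over all cells by the rule, the 26 genes of the muscle list held 0.0870% of the counts in 19CB27:3, 0.0823% in 19CB4:5, 2.57% in 20GG79:1 and 0.738% in 20GG79:6. The dual-line mice did not overlap the others. The difference of the means was 1.57 percentage points, with p = 0.333 in a two-sided exact permutation test, the smallest p that 2 against 2 mice allow. With macrophage-like cells alone the difference was 0.336 points (p = 0.333, exact permutation test), and with those of 19CB27:3 and 20GG79:6 alone, the only mice with 5 such cells, it was 0.0846 points. In 20GG79:1, 337873 of the 446268 counts of macrophage-like cells came from 1 cell, with 1563 CPM of Myh11 and 3415.5 of Dcn. Line, plate and the muscle cells on the plate move together here, and the dual line also holds the only females.

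Across all genes, edgeR's quasi-likelihood test compared the dual line (20GG79:1 and 20GG79:6) with the other lines (19CB27:3 and 19CB4:5). It used sums over all cells by the rule, those of low marker level included. Macrophage-like cells held 446268 of 1644201 counts in 20GG79:1 and 2000822 of 4288970 in 20GG79:6. They held 726343 of 1829147 in 19CB4:5 and all 5730384 in 19CB27:3. What part these unlike shares had in the values below was not tested. The test called 0 of 11122 genes, 0%, at an adjusted p of 0.05. At an unadjusted p below 0.05 there were 872 genes, and DESeq2 called 586. The lowest adjusted p was that of Myh11, with 3077 and 481.5 CPM in the dual-line mice against 6.46 and 2.19, a log2 fold change of 8.64 ± 1.37 (SE, edgeR adjusted p = 0.0587). Lyve1 stood at 0.608 and 1.17 CPM in the dual line against 1578 and 259.7 in the others, a log2 fold change of -9.88 ± 1.61 (edgeR adjusted p = 0.0587). Hmox1 had -8.43 ± 1.60 (adjusted p = 0.218), F13a1 -6.71 ± 1.49 (adjusted p = 0.372) and Acta2 5.56 ± 1.16 (adjusted p = 0.291). For these genes the dual-line mice did not overlap the others, which is no result apart from the fold changes just given. The share of all tested genes that did so was not counted. With 2 against 2 mice, such a separation has p = 0.333 in a two-sided exact permutation test.

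By list, 0 of 24 muscle genes and 0 of 27 resident genes passed, with median log2 fold changes of 5.30 and -3.02, beside -0.03 over all 11122 genes. The 15 chemokine genes had a median of -4.13 and the 9 endothelial genes, Lyve1 among them, of -4.03. Restricted to macrophage-like cells, with 2 mice a side, edgeR called 0 of 7742 genes, 0%, and 4.62% had an unadjusted p below 0.05. There the muscle median was 2.95 (20 genes), the resident median -1.60 (26 genes) and the median of all genes 0.02. Myh11 had a log2 fold change of 7.25 ± 2.27 (adjusted p = 0.909) and Lyve1 of -8.95 ± 2.04 (adjusted p = 0.0863). In that fit Acta2 stood at 1219 and 611 CPM in the dual line against 71.9 and 4.13. Of the 446268 counts of 20GG79:1 in this fit, 337873 came from 1 cell, which held RNA of fibroblasts and muscle. The values of 20GG79:1 there rest mostly on that cell. Females could not be compared with males, since 1 female mouse had at least 5 cells by the rule.

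The genes that name the reporters were read in the same cells. Acta2, named above for muscle, had a median of 112.5 CPM in the 32 macrophage-like cells, from 0 to 4669, and reached 50 CPM in 22. Cspg4 had a median of 15.3 CPM in the 32 macrophage-like cells, from 0 to 716, Pdgfrb of 13.5 CPM, from 0 to 565, and Pdgfra of 0 CPM, from 0 to 44.9. In the 20 cells of 19CB27:3, of the line CSPG4dsRED, Cspg4 had a median of 11.9 CPM and reached 50 CPM in 3 cells. The fluorescence of the sorted cells was not analysed here.

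Gene counts per cell ran from 52316 to 891117 in macrophage-like cells, with a median of 167185 and 3498 to 8770 genes detected. In cells of low marker level the median was 139295, between 49350 and 690269, and over all 1615 cells from 45388 to 1046988 with a median of 194180. Xist, the RNA of the inactive X chromosome, was at 794 and 1093 CPM in the females and at most 0.349 in the males, summed over cells by the rule. The summed Y-linked genes Ddx3y, Eif2s3y, Kdm5d and Uty stood at 91.4 to 131.2 CPM in the males 19CB27:3, 19CB4:5 and 20GG79:6, at 24.3 and 1.92 in the females 20GG79:1 and 20GG95:3, and at 8.89 in the single cell of the PDGFRbGFP male, which is too little RNA to check that label.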

How the data were processed

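Single colon cells of 11 mice on 13 plates were sequenced with Smart-Seq2, per the labels. The authors deposited raw read counts per gene and spike-in with no normalization, 1 column per cell. Per the submitters' processing notes, bcl2fastq, Bowtie, Bowtie2, featureCounts and Subread were used, with the builds GRCm38 and mm10. Versions, cell filters, strand and duplicate handling were not given in the sources used here, so paralogs and overlapping genes may share reads. The 46517 gene identifiers were named from GENCODE on GRCm38 (46005 matched), and the 92 spike-ins were left out of totals.

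The rule, its cells and the gene lists were chosen with earlier results of these data known. CPM per cell were computed from the counts with Python 3.11.15. Counts were summed over the cells of each mouse. Sums over mice with at least 5 cells were tested with edgeR 4.0.16 (R 4.3.3; TMM, filterByExpr, robust quasi-likelihood, Benjamini-Hochberg adjustment, threshold 0.05), and DESeq2 1.42.0 was an alternative. The mouse is the replicate, and 2 mice a side leave 2 residual degrees of freedom, so SEs rest mainly on a spread pooled over genes. Tested on simulated sums, the edgeR step recovered changed genes, but the size of change and the spread between mice were set by hand. What share of real changes it would find in these mice was not tested. A comparison of the sexes was planned and could not be made. No doublet caller was run, and no 2 cells by the rule had identical counts. Named genes were those of the rule, Myh11 and Acta2, the 6 most abundant members of each list, the 20 genes with the highest smallest ratio over mice, and the 15 most variable genes. Members called of a list, and genes of a list at or near 0, were named beside them, and genes of single cells after their values were seen. Intervals of shares are Clopper-Pearson intervals at 95%, and the floor under a count of 0 is 3 counts. The reads carry no molecular identifiers and PCR copies may be counted more than 1 time, so intervals and floors cover counting error only. Some genes that the rule for names would give are not reported here.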

Additional observations from a re-analysis of the deposited data

Results flagged for a closer look

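Lyz2, Cd74, Myh11 and Acta2, none of them used by the marker sum, were examined for a cell far from the others in groups of 4 to 10 cells. Of 12 such groups 4 had such a cell. The nominal rate of the rule, about 1 in 20, cannot be used as a chance level here. CPM of single cells are skewed, and the Lyz2 and Cd74 cases below are the same cell. Whether 4 of 12 is more than chance gives was not tested. In the 6 macrophage-like cells of 20GG79:6, 1 cell had 4669.1 CPM of Acta2 and the nearest 657. That cell also had 366.2 CPM of Myh11, 6367 of Lyz2, 5818 of Fcrls and 183.1 of Csf1r, and its C1qc made up 74.2% of its C1q RNA, where the other 31 cells ran up to 51.8%. In the 7 cells of low marker level of 19CB4:5, 1 cell had 4140.6 CPM of Cd74 (nearest 436.95) and 330.4 of Lyz2 (nearest 150.8), and it was the cell with 3733 CPM of Cd3e. Another cell of that group had 48.18 CPM of Acta2 (nearest 13.9), which is far below the level of muscle cells. The causes were not tested.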

How the results depend on the processing

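The share of all cells that met the rule, 3.78%, moved with the marker sum to 6.87% at 100 CPM, 2.41% at 400 and 1.98% at 1000. The share of genes at least 4-fold higher was 1.05% for the 61 cells and 3.11% for macrophage-like cells. Leaving out 1 mouse gave 1.13% to 2.59% for the former, the highest without 20GG79:1, and 4.71% to 5.32% for the latter, whichever of the 3 mice was left out. A gene then had to pass in 1 mouse fewer. The line test, with 0 calls, gave 586 with DESeq2 (60.1% of them higher in the dual line), 2 with RLE size factors, 31 without a filter on low counts, 2 over mice with at least 3 members, 19 over mice with at least 10 and 19 with males only. Leaving out 1 mouse gave 19 to 87 calls, the lowest without 20GG79:1 and the highest without 20GG79:6, 36 without 19CB27:3 and 54 without 19CB4:5. These fits leave 1 mouse on a side, which is assumed to vary like the others, and the causes were not tested. The medians of Myh11 and Acta2 moved by less than the spread between cells. Without 19CB27:3 they were 104.7 and 398.6 CPM, and without 20GG79:6 they were 6.65 and 106.98. The muscle share kept its direction in all 9 alternatives run, which gave differences of 0.0846 to 2.48 points.

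No paired analysis was possible because replicate numbers only name cells. Not run were the line test with Myh11 and Acta2 below 200 CPM, which leaves no dual-line mouse with enough cells, and at a marker sum of 1000 CPM with at least 5 cells, which leaves 1 mouse a side, and all fits of the sexes. The share summed per mouse is the value reported. The alternatives added after seeing the data were the fits on macrophage-like cells in mice with fewer cells, the mean over cells for the muscle share, the leave-one-out counts of genes, and, for macrophage-like cells, the 10-fold criterion, other reference wells and leaving out the 7 cells described one by one.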

Other observations

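The share of genes higher in macrophage-like cells was computed again with other reference wells and fewer cells. Against wells in neither the row nor the column of a macrophage-like cell, 3.34% of 11697 genes were at least 4-fold higher in each of 3 mice, beside 3.11% of 11814 against all other cells. Without the 7 cells described one by one the share was 2.71%, and at 10-fold it was 2.12%.

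On the plate of 19CB27:3, with 20 macrophage-like cells, there was no cell of low marker level, although 41 of the 46 wells that shared only a column with them held C1q RNA. The highest C1q level in such a well was 151.2 CPM.

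The macrophage-like cell of the PDGFRbGFP male that had 1 had the highest marker sum of all, 25071.6 CPM. It lay within the range of the cells of 19CB27:3 for F13a1 (2125 CPM), Lyve1 (2454) and Mrc1 (4721), had 0 CPM of Cd163, and had 7272.5 of H2-Ab1. It is 1 cell, and no comparison rests on it.

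Row E of the plate of 20GG79:6 held 4 cells of low marker level and, not adjacent to them, the macrophage-like cell whose C1q RNA was 74.2% C1qc. The other macrophage-like cell of that row, with more gene counts, had 34.4%. The C1qc shares of the 4 cells ran from 26.7% to 70.8% with a median of 39.2%, against a median of 29.6% over the macrophage-like cells.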
